A study of Mus musculus with 2 samples.

Results

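Semaphorins, plexins, Eph receptors and ephrins were described in mammary epithelial cells of Cuzd1-null mice and of their heterozygous littermates. The members were all probe sets whose single gene symbol was Sema followed by a digit, Plxna to Plxnd followed by a digit, or Epha, Ephb, Efna or Efnb followed by a digit. This gave 116 of 45037 non-control probe sets, for 51 of 18193 genes with a probe set. Of these genes, 50 encode proteins of the 4 families, and 1, Plxna4os1, carries the name of an RNA antisense to Plxna4 and was kept apart. No probe set with a single symbol named Ephb2, which was not analysed here.

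Both groups came from a strain crossed back to C57BL/6, and the null allele was made by gene targeting, so every cell type of the gland carries it. The control mice carried 1 targeted allele and were not wild type. Inguinal glands were digested with enzymes on day 18 of pregnancy and the cells were pelleted and washed, with no sort recorded in the labels. RNA of 5 mice of each genotype was combined on 1 array, so there are 2 arrays and no replicates, and no p-value or replicate error can be given. Each value below is a comparison of these 2 pools.

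Semaphorins are ligands that steer migrating cells and growing axons. Those of class 3 are secreted, and the other classes here are held in the membrane, by a transmembrane segment or, for Sema7a, by a lipid anchor. Plexins are their receptors, and class 3 ligands mostly need a neuropilin as co-receptor. Eph receptors are receptor tyrosine kinases whose ligands, the ephrins, sit on the neighbouring cell, so that contact can signal in both directions. Ephrin-A ligands have a lipid anchor and mostly bind EphA receptors, while ephrin-B ligands span the membrane and mostly bind EphB receptors. In the mammary gland, both systems are known for roles in the shaping of ducts and alveoli and in the vessels around them.

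The values are MAS5 signal intensities in arbitrary units. Dim MAS5 signals are mostly background, so signals under the median of their array were set to it. This floor was 34.2 units for heterozygous and 32.5 units for null cells. A gene was read at its brightest probe set (by the mean of both arrays) and counted as measured if it was above the floor on at least 1 array. Ratios are log2 of null over heterozygous signal after flooring, so a value above 0 is a higher signal in the null pool. Where 1 array was at the floor, the fold is a lower bound. Probes bind with different strength, so a brighter probe set does not mean more RNA. Brightness is used here to choose probe sets and to say how far a signal lay above the floor.

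Of the 50 protein-coding members, 36 were measured, and 32 of them were above the floor on both arrays. The other 14 were at the floor on both: Sema3a, Sema3b, Sema3e, Sema4f, Sema6b, Epha3, Epha5, Epha6, Epha7, Epha8, Epha10, Ephb6, Efna2 and Efnb3. Plxna4os1 was at the floor on both arrays as well. The measured members mostly lay closer to the floor than other genes, with a median mean signal of 89.1 units against 187 units over all 11893 measured genes.

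**Figure D1:**
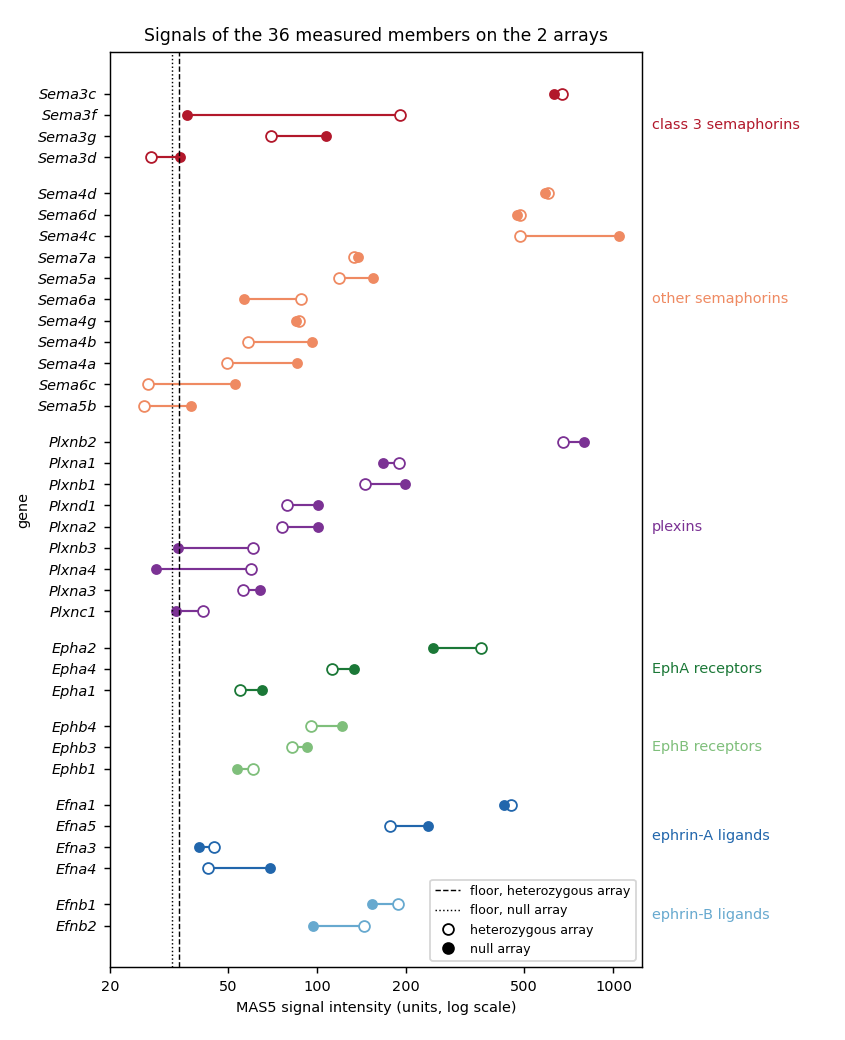
MAS5 signal intensity (units, log scale) of the 36 measured members on the heterozygous array (open circles) and the null array (filled circles), by subfamily, with the floor of each array as a dashed or dotted line. The longest lines belong to Sema3f, from 190 down to 36.4 units, and Sema4c, from 482 up to 1043 units.

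The class 4 semaphorins Sema4c, Sema4a and Sema4b had the highest ratios of all measured members, as floored and at their brightest probe sets. Among the measured members, Sema6c is an exception without the floor: its ratio of 0.63 is a lower bound and became 0.98, above Sema4a (0.79) and Sema4b (0.72). Of the members at the floor on both arrays, Sema3b, Sema3e and Sema3a had 2.53, 1.97 and 1.25 without it. These lay above Sema4c too, but come from signals that are mostly background. The RefSeq promoter windows (GRCm38.p6) of Sema4a, Sema4b and Sema4c are shown because their floored ratios were the highest of the measured members. That choice by itself puts them on the same side of 0. No window was found for Sema3f. Each window runs from 250 bases before to 50 bases after the outermost annotated start, and the arrays do not tell which start was used. Capitals mark the letters of a GC box (GGGCGG) or an AP-1 motif (TGANTCA), searched on both strands.
Sema4a, chr3:88461133-88461432, minus strand: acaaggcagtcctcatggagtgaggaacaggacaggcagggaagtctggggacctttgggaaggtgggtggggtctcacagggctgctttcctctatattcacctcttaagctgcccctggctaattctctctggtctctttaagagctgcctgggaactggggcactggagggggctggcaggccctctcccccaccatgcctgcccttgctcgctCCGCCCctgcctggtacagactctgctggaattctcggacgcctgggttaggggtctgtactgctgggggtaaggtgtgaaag
Sema4b, chr7:80186620-80186919, plus strand: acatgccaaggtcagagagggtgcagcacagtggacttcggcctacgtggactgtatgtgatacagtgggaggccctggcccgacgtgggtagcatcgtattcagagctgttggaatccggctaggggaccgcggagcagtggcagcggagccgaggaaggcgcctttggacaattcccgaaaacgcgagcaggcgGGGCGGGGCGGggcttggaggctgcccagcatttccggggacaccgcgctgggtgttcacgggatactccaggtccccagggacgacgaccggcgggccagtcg
Sema4c, chr1:36558332-36558631, minus strand: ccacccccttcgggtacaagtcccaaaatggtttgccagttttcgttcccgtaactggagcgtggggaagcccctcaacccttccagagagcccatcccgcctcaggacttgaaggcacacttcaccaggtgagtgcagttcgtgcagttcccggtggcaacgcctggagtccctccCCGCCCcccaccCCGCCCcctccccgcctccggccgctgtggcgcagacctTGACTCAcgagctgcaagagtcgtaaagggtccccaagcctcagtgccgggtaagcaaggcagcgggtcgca

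The GC box occurred 1 time in the Sema4a window and 2 times in each of the others, where the 2 copies of Sema4b overlap by 1 base. Of 32841 RefSeq promoter windows of this length, 35.7% held a GC box. The GC content of the windows of Sema4a, Sema4b and Sema4c was 59.7, 65.3 and 64.3%, against a median of 52.7% over all windows. The share of 35.7% is therefore not one of windows matched for GC content. The AP-1 motif occurred in the Sema4c window, with its first base 22 bases before the start, and in 7.81% of all windows. At the other annotated start of Sema4c there were 3 GC boxes and 0 AP-1 motifs. The other start of Sema4b held 2 GC boxes, and the 3 other starts of Sema4a held 2, 1 and 0. The STAT motif TTCNNNGAA was in none of the 3 windows and in 8.30% of all windows. These are matches of letters and not measured sites.

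Sema4c, a ligand of Plxnb2, read 482 units in heterozygous and 1043 units in null cells, 2.16-fold higher (log2 ratio 1.11). It has 1 probe set. Genes of similar signal had a robust SD of 0.24 in their log2 ratios, which holds real differences as well as noise, and Sema4c lay 4.65 of these SDs above their median. Sema4a, which has known roles in immune cells, read 49.5 and 85.7 units (log2 ratio 0.79). Its dimmer probe set read 19.9 and 35.9 units, with only the null array above the floor (log2 ratio 0.07, a lower bound). As a mean over measured probe sets, Sema4a had 0.43, under Sema5a at 0.71. Sema4b read 58.3 and 96.3 units (log2 ratio 0.72), and its other probe set was at the floor on both arrays. The ratios of Sema4a and Sema4b were 1.66 and 1.56 robust SDs above genes of similar signal. The class was not higher throughout: the ratio was -0.04 for Sema4d and -0.03 for Sema4g.

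Sema4d, the ligand of Plxnb1, read 602 and 586 units at its brightest probe set. A dimmer probe set read 155 and 106 units, a log2 ratio of -0.55. The third read 35.6 units in heterozygous cells, just above the floor, and 15.3 units in null cells, under it.

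Sema3f is a secreted ligand that acts through Nrp2 and can repel endothelial and tumour cells. Its brightest probe set read 190 units in heterozygous and 36.4 units in null cells, a 5.22-fold lower signal (log2 ratio -2.38). Only 2 of the 11893 measured genes had a lower ratio. A second probe set of the gene read 62.4 and 54.1 units (log2 ratio -0.21), and another was below the floor on both arrays, at 6.57 and 28.3 units. The 2-fold difference of Sema3f therefore rests on 1 probe set. The name of that probe set ends in x_at, which in Affymetrix naming marks a set with probes that may also bind other transcripts.

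Among the other class 3 semaphorins, Sema3c read 672 and 629 units (log2 ratio -0.10), with 112 and 87.3 units at its dimmer probe set (-0.36). Sema3c is known to act on both neuropilins. Sema3g, which is made by endothelial cells, read 69.8 and 107 units (0.62). Sema3d was above the floor in null cells only, at 27.4 and 34.6 units.

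The measured probe sets of Sema5a were on the same side of 0. It read 118 and 155 units at the brightest (log2 ratio 0.39) and 35.9 and 73.5 units at the next (1.03, 2.05-fold), while the remaining ones were below both floors. Sema6a, a ligand of Plxna2 and Plxna4, had probe sets on both sides of 0. They read 88.2 and 56.9 units (-0.63), 72.3 and 58.4 units (-0.31), and 45.1 and 50.2 units (0.15). Sema6c read 26.9 units in heterozygous cells, under the floor, and 53.1 units in null cells, at least 1.55-fold higher. The ratios of Sema6d, a ligand of Plxna1, and of Sema7a, which binds Plxnc1 and integrins, were -0.04 and 0.05. Sema5b, under the floor on the heterozygous array, had 0.14.

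All 9 plexins were measured, and none was 2-fold apart. Plxnb2, which binds class 4 ligands, read 675 and 797 units (log2 ratio 0.24). Plxnb1 had nearly equal ratios at both of its probe sets, 145 and 198 units (0.45) and 117 and 160 units (0.45). Plxnd1, the receptor of Sema3e on endothelial cells, read 79.3 and 100.4 units (0.34). Plxna1 read 190 and 167 units (-0.19), and Plxna3 56.1 and 64.0 units (0.19). Of the 3 measured probe sets of Plxna2, the brightest had a ratio of 0.40, the next -0.35 and the last 0.02, so no direction is given for this gene.

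The plexins with the lowest ratios were dim. Plxna4 read 59.9 units in heterozygous cells and 28.7 units, under the floor, in null cells, at least 1.84-fold lower. Plxnb3, a receptor for Sema5a, read 60.9 and 34.1 units (log2 ratio -0.84), and its other probe set 60.7 and 29.1 units, at least 1.87-fold lower. Genes of similar signal had a robust SD of 0.76, and both genes lay under 2 of these SDs from their median. So near the floor, flooring caps the ratio, and 2 of these SDs could hardly be reached. This measure therefore does not judge the 2 genes. Plxnc1 read 41.1 and 33.5 units (-0.29), and its 5 other probe sets were below both floors.

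**Figure D2:**
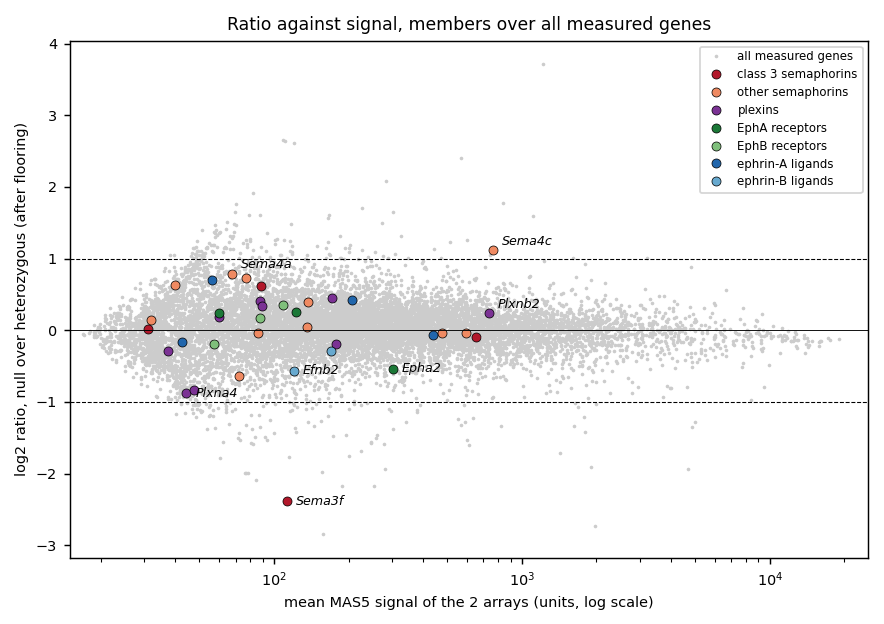
Log2 ratio of null over heterozygous signal (vertical) against mean MAS5 signal (units, log scale, horizontal) for the 36 measured members, coloured by subfamily, over all 11893 measured genes in grey. Dashed lines mark 2-fold, and Sema4c (1.11) and Sema3f (-2.38) are the members outside them.

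Eph receptors were measured for 6 of 13 members. Epha2, an epithelial receptor of Efna1, read 356 and 245 units (log2 ratio -0.54). This was 2.00 robust SDs below genes of similar signal. Epha4, which can bind ephrins of both classes, read 112 and 134 units (0.26) and 53.8 and 61.9 units (0.20) at its brightest probe sets. A dimmer one read 44.8 and 30.8 units (-0.46, null array at the floor). Epha1 read 54.9 and 65.2 units (0.25).

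Of the EphB receptors, Ephb4, the partner of Efnb2 in the parting of veins from arteries, read 95.2 and 121 units (log2 ratio 0.35). Ephb3 read 82.6 and 92.8 units (0.17) and Ephb1 60.9 and 53.6 units (-0.19). All 3 ratios were within 1 robust SD of genes of similar signal.

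Ephrins were measured for 6 of 8 members. Efnb2 read 144 and 97.2 units (log2 ratio -0.56), and 111 and 82.4 units at its next probe set (-0.43). Over the alternatives in processing that kept the gene, its ratio lay between -0.59 and -0.34. Efnb1 read 187 and 153 units (-0.29), 134 and 134 units (0.00), and 91.0 and 51.1 units (-0.83) at its 3 probe sets. The probe sets of Efnb1 therefore differed from each other by more than the ratio of the brightest.

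Efna1 read 451 and 429 units (log2 ratio -0.07) and 353 and 350 units (-0.01), so both probe sets of this ligand of Epha2 were near 0. Efna5 read 176 and 237 units (0.42), and its other probe set was below both floors. Efna4 read 42.8 and 69.4 units (0.70), 1.18 robust SDs above genes of similar signal. Efna3 read 44.9 and 39.9 units (-0.17).

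Counts of members were set beside those of all measured genes. At least 2-fold lower was 1 of 36 members, Sema3f (2.78%), against 1.03% of all measured genes, and at least 2-fold higher was 1, Sema4c (2.78%), against 1.12%. Among the 55 measured probe sets of the members, 1 was at least 2-fold lower (1.82%) and 2 were higher (3.64%), against 1.19% and 0.965% of all measured probe sets. With a rule of 1.5-fold, chosen after the values were seen, 4 members were lower (11.1%) against 4.93% of genes, and 6 were higher (16.7%) against 5.83%. The lower ones were Sema3f, Sema6a, Plxna4 and Plxnb3, and the higher ones Sema4a, Sema4b, Sema4c, Sema3g, Sema6c and Efna4.

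These counts do not allow for the dimness of the members. A mean signal under 100 units was found for 19 of the 36 (52.8%), against 32.5% of all measured genes. The robust SD among genes of similar signal had a median of 0.40 over the members and 0.28 over all measured genes. Robust SDs of genes of similar signal were also chosen as a measure after the values were seen. In these, 2 of the 36 members lay at least 2 below the median (Sema3f and Epha2) against 4.05% of genes. Only 1 of the 36, Sema4c, lay as far above it, against 3.14% of genes. Flooring caps the ratios of the dimmest genes, so some members, Plxna4 among them, could not reach 2 of these SDs. These counts therefore do not fully allow for dimness either.

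The median log2 ratio was 0.09 over the 36 members (quartiles -0.19 and 0.39) and 0.03 over all measured genes (quartiles -0.18 and 0.23). With no floor the median was -0.04 over all 50 members, with the 14 at the floor on both arrays counted in. The quartiles of the 36 lay on both sides of 0, so no direction is given for the members as a whole. As floored, the median was 0.05 for 15 semaphorins, 0.19 for 9 plexins and 0.21 for 6 Eph receptors. With each gene read as the mean over its measured probe sets, the median of the plexins was 0.02. For 6 ephrins the median was -0.12, which became 0.11 when the arrays were rescaled to the hybridization controls. Among all genes above the floor on both arrays, that rescaling shifted the median ratio from 0.03 to 0.26, and all ratios here are relative to the scaling as deposited. With no floor, the median of the Eph receptors was -0.19, but over all 13, with the 7 at the floor on both arrays counted in. The ratios of the 6 measured receptors did not change without the floor. These 6 lay on both sides of 0, so no direction is given for them.

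**Figure D3:**
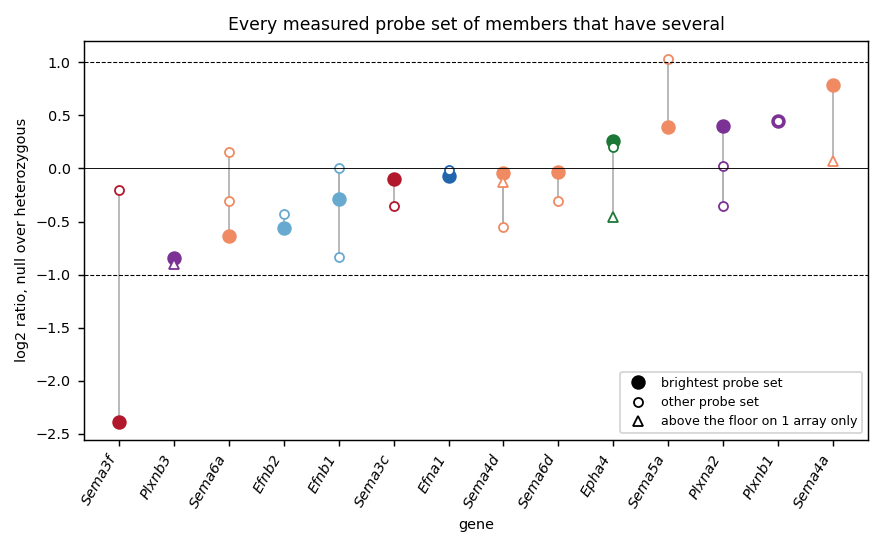
Log2 ratio of null over heterozygous signal (vertical) at each measured probe set of the members that have several (horizontal), with the brightest filled, the others open, and triangles where only 1 array was above the floor. The probe sets of Sema3f differ most, at -2.38 and -0.21, and those of Plxnb1 coincide at 0.45.

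Probe sets of a gene read the same pools, so their spread does not stand in for replicates. In 12 members with at least 2 probe sets above both floors, the 2 brightest lay on the same side of 0 in 10 (83.3%), against 65.0% of 4722 such genes. The robust SD per probe set was 0.31 over these members and 0.21 over all such genes.

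The log2 ratios of some known ligands and their receptors are set side by side. Sema4c had 1.11 and its receptor Plxnb2 0.24. Efnb2 had -0.56 and Ephb4 0.35, while Efna1 had -0.07 and Epha2 -0.54. Sema5a had 0.39 and Plxnb3 -0.84. With 1 array per genotype, these differences were not tested.

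Partners of the semaphorins and plexins had a median log2 ratio of 0.08 over 28 measured of 36 listed genes, and none was 2-fold apart. Those with the brightest probe sets, Rac1 and Cfl1, which act on the actin skeleton, had -0.09 and 0.09. The neuropilins, named for their role after their values were seen, read 164 and 212 units (Nrp1, 0.38) and 87.9 and 95.9 units (Nrp2, 0.13). Mediators of Eph and ephrin signalling had a median of 0.02 over 35 measured of 39. Of these, 1 was at least 2-fold lower (2.86%, against 1.03% of all measured genes) and 0 were higher (against 1.12%). The 1 gene, Ptpn13, a phosphatase recruited to ephrin-B, read 69.3 units in heterozygous cells and 28.7 units, under the floor, in null cells, at least 2.13-fold lower. Slits, netrins, their receptors and related guidance genes had a median of -0.14 over 18 measured of 27, with none 2-fold apart. Rtn4 and Neo1, which had the brightest probe sets of the list, had -0.18 and 0.39.

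**Figure D4:**
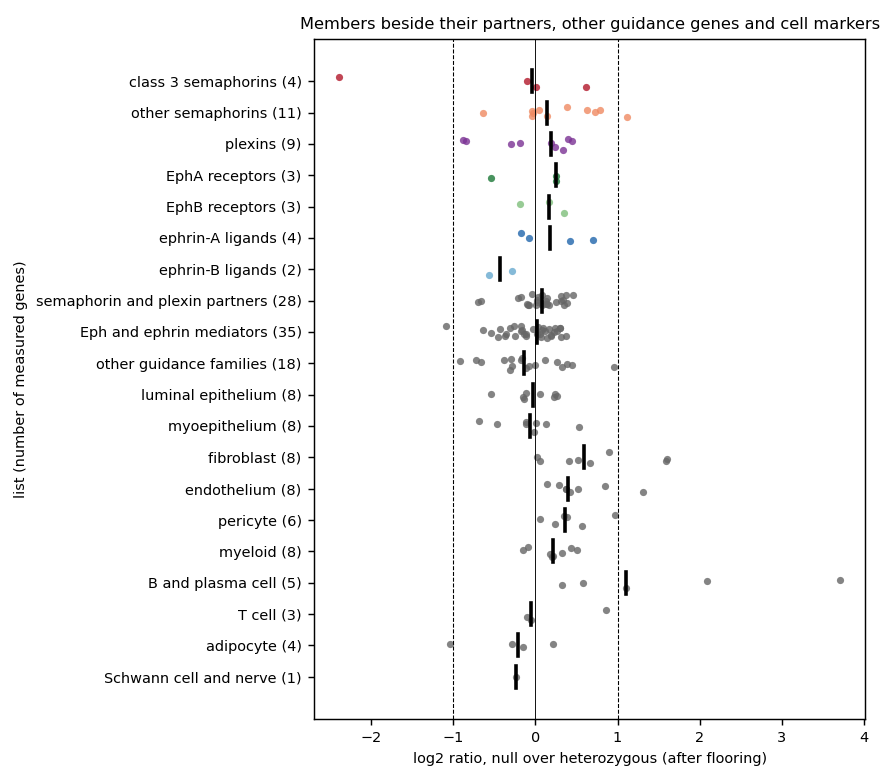
Log2 ratios of null over heterozygous signal (horizontal) for the measured members by subfamily, and in grey for related lists and markers of cell types, with the number of measured genes in brackets and a black bar at each median. Fibroblast, endothelial and pericyte markers all lie above 0, while luminal and myoepithelial markers lie on both sides.

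Many members are also made by vessels, fibroblasts and immune cells, and a pool of digested cells cannot tell more cells of a type from more RNA per cell. Markers are counted as higher where their ratio was above 0, which held for 54.0% of all measured genes. Endothelial markers were higher in null cells for 8 of 8 genes, with a summed signal of 1660 and 2360 units and a median ratio of 0.40. Fibroblast markers were higher for 8 of 8 (7287 and 11059 units, median 0.59) and pericyte markers for 6 of 6 (1990 and 2816 units, 0.36). Of these markers, Col1a2 was 3.02-fold, Pdgfra 3.05-fold and Vwf 2.49-fold higher. At least 2-fold higher were 1.12% of all measured genes. Others lay near 0, with Fbln1 at 0.02 and Col1a1 and Cspg4 at 0.06. The pericyte marker Kcnj8 was above the floor on the null array only. Myeloid markers were higher for 6 of 8 (7964 and 8799 units, 0.21), with Itgam above the floor on the null array only. B and plasma cell markers were higher for 5 of 5 measured (353 and 2877 units, 1.11), but only 2, Ighm and Jchain, were above both floors. The others, Cd79a, Ms4a1 and Mzb1, counted as measured through the null array alone, so the filter nearly fixed their direction. Cd79b was at the floor on both arrays. Ighm, at 172 and 2252 units, made most of the rise in the summed signal.

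Luminal markers were higher for 4 of 8 (51721 and 52926 units, median log2 ratio -0.03) and myoepithelial markers for 3 of 8 (22327 and 20589 units, -0.06), so the labelled epithelium was present in both pools. T cell markers were higher for 1 of 3 measured, and adipocyte markers for 1 of 4. Of the T cell markers, only Cd8a (-0.10) was above both floors. Cd3g and Cd2 counted as measured through the null array alone. The signal of Cd2 was higher in null cells, but flooring gave -0.05, because the heterozygous floor is the higher one. This count therefore gives no direction for T cells. Adipoq and Lep counted as measured through the heterozygous array alone, so the filter nearly fixed their direction. Of the nerve markers, S100b, Tubb3, Nefl, Nefm and Prph were at the floor on both arrays. Sox10, which mammary epithelium also expresses, had -0.23. The part of these cell types in the values of the members was not tested. The targeted gene does not check the labels, since Cuzd1 read 32.4 and 33.98 units, close to the floors.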

How the data were processed

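Signals of 45101 probe sets were analysed, 64 of them controls, on 1 array per genotype. The submitters' processing notes name MAS5 and Affymetrix Expression Console, version 1, as what the authors used to make the deposited signal intensities, on a linear scale. A genome build was not given in the sources used here. With the top and bottom 2% of values left out, both arrays had a mean of 150.0 units, as a global scaling factor gives. MAS5 scaling sets total signal equal, so a global difference would not be seen.

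Symbols came from the platform annotation and were brought up to date by Entrez ID with the RefSeq table, which held 34754 of 34958 probe sets with 1 symbol. No member symbol changed. Ratios, floors and counts were computed with Python 3.11.15, numpy 2.4.6 and pandas 2.3.3. Robust SDs came from the median absolute deviation in 20 bins of signal. The procedure was tested on simulated data with 200 planted differences. These were larger than 2-fold, in genes brighter than most members, with less noise than the spread of genes of similar signal here. That test therefore does not show how well smaller differences in dim members are found. Promoter windows were found for 44 of 51 members.

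Members named in full were those 2-fold apart at any probe set and the 2 brightest of each subfamily; others are given by ratio or name. From the related gene lists, genes 2-fold apart or the 2 brightest were named. Among the cell type markers, those 2-fold apart and some others were named. Members and lists were chosen with earlier results of these data known. The number of arrays limits the precision. The alternatives were the floor, the filter, the scaling and the choice of probe set.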

Additional observations from a re-analysis of the deposited data

How the results depend on the processing

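Of 36 measured members, 26 kept the sign of their ratio under every alternative that gave a value, and Sema4c stayed at least 2-fold higher in all 9. Most alternatives left a gene at the same probe set, so a kept sign does not mean that its probe sets agree. Plxna2 and Sema6a are among the 26, though their probe sets lay on both sides of 0. Sema3f was at least 2-fold lower except with a 75th percentile floor (-0.35) and at its next brightest probe set (-0.21). Shares of all genes or probe sets measured under the same setting stand beside each count. At least 2-fold lower were 3 of 48 members with a 25th percentile floor (6.25%, against 5.08% of genes), 5 of 50 with no floor (10% against 10.2%), and 0 of 13 with a 75th percentile floor (against 0.551%). At least 2-fold higher were 4 members with the 25th percentile (8.33% against 4.14%), 4 with no floor (8% against 9.13%), and 2 of 36 when rescaled to the hybridization controls, Sema4a and Sema4c (5.56% against 2.94%). Past 1.5-fold, 4 of 36 members were lower (11.1%) and 6 higher (16.7%), against 4.93% and 5.83% of genes. For probe sets, the counts lower and higher were 7 and 10 of 100 with the 25th percentile (against 6.49% and 4.33%), 16 and 15 of 115 with no floor (against 13.4% and 10.9%), and 0 and 1 of 16 with the 75th percentile (against 0.545% and 0.352%). Lower floors admit signals that are mostly background.

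Rescaling to the hybridization controls gave medians of 0.32 for all members, 0.27 for semaphorins, 0.42 for plexins, 0.44 for Eph receptors and 0.11 for ephrins, and 349 genes higher and 59 lower in the whole series. For semaphorins, a 25th percentile floor gave a median of 0.39 and no floor 0.36. For Eph receptors, these gave -0.18 and -0.19, and a 75th percentile floor -0.54, where Epha2 was the 1 receptor left. The 25th percentile floor and no floor measured 48 and 50 members in place of 36, so their medians cover more genes. No paired analysis was possible because each genotype has 1 array. The low signal of most members, near the floor, limits what these arrays can show.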
